A study of Mus musculus with 12 samples.

Results

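The vagina of newborn mice bred to lack Trp63 in Pax2-cre cells (cKO vagina) was set against the vagina of mice that keep 1 working Trp63 copy there (cHet vagina). The comparison uses 8 of the 12 arrays of the series, namely the 4 titled as cKO vagina and the 4 titled as cHet vagina, and all named probes that were above background. The cKO mice were Trp63 flox/flox and Pax2-cre, written as flox/floxt in the design text, and the cHet mice were Trp63 flox/wt and Pax2-cre, so both groups carried the Cre transgene and at least 1 floxed allele. The 4 cHet uterus arrays, from the cHet genotype, entered the estimate of the spread and are used as an outside level. All pools came from females at postnatal day 3, on a mixed background (C57BL/6 with S129/5 and with CD-1), and each was total RNA from the organs of 3 mice.

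Trp63 encodes p63, a transcription factor of the p53 family that basal cells of stratified epithelia need. In the Müllerian tract p63 comes on in the epithelium of the future vagina around birth and stays off in the uterus, whose epithelium remains a simple columnar layer. In skin, p63 switches on basal keratins and the proteins that fix basal cells to the basement membrane.

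Pax2-cre deletes a floxed segment only in cells that have expressed the Pax2-driven Cre, and cells of other lineages keep their Trp63 copies. Each array read a whole organ, in which fewer cells of a type and less RNA per cell cannot be told apart. Replicates were pools with no label that ties 1 pool to another, so each p-value below measures the spread between pools. Values are log2 intensities after background correction and quantile normalisation, and a list of 4 levels runs over replicates 1 to 4. A gene was called where the limma adjusted p (Benjamini-Hochberg over 11103 genes, two-sided) was under 0.05.

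Median intensity ran between 72.3 and 93.9 over the arrays, with 38.7% to 45.2% of each array's probes exceeding background. Over the 8 vaginal pools the first principal component held 31.8% of the variance and separated replicates 1 and 2 from replicates 3 and 4 in both genotypes. The second held 21.0% and separated cKO from cHet pools. No label says what the replicates of a set share. Values within replicates 1 and 2, called the first set here, and within replicates 3 and 4, the second set, are given for many of the genes below.

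One pool stood apart. cKO vagina replicate 3 held transcripts of secreted liver proteins that the other vaginal pools lacked or nearly lacked. Ttr, the thyroid hormone carrier of plasma, read 4.18, 4.26, 11.18 and 4.42 in cKO vagina, against 4.40, 4.17, 4.51 and 4.70 in cHet vagina. Kng1, the kininogen gene, read 4.16, 4.33, 11.82 and 5.11 in cKO vagina, against 4.38, 4.26, 4.72 and 4.87 in cHet vagina. A list of 20 liver genes was written after this pool had been seen, and 12 of them were tested. In 12 of 12 cKO replicate 3 lay over 1 log2 unit above every other vaginal pool. Their mean was 9.65 in that pool, 4.57 to 4.67 in the other cKO pools and 4.51 to 4.74 in cHet pools. Over all genes, 43 lay that far above every other vaginal pool in cKO replicate 3, and at most 3 did so in any other pool. The 6 tested red blood cell genes averaged 11.25 in cKO replicate 3, 9.07 to 9.66 in the other cKO pools and 8.90 to 9.27 in cHet pools. The 9 skeletal muscle genes averaged 6.96 in it, 4.67 to 5.97 in the other cKO pools and 4.71 to 6.20 in cHet pools. The part of this RNA in other differences was not tested.

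**Figure D1:**
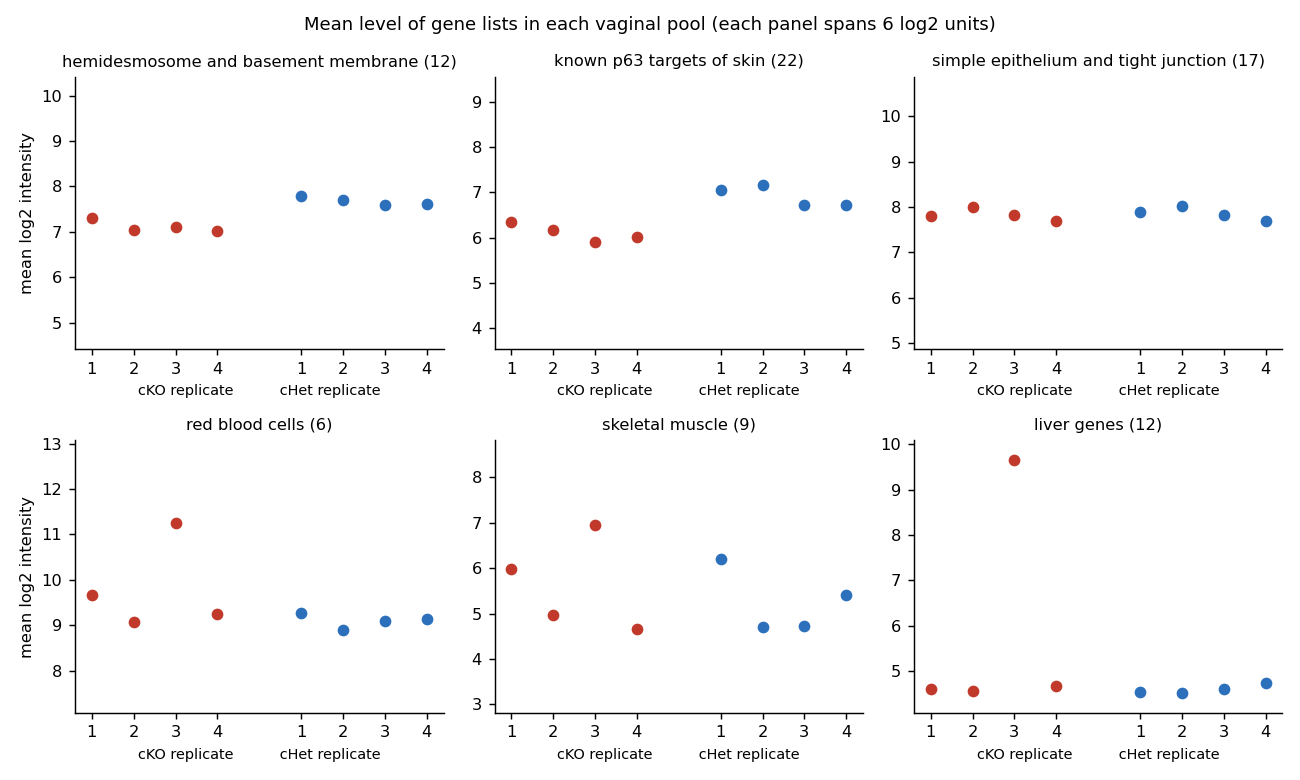
Mean log2 intensity of 6 gene lists in each vaginal pool, with cKO replicates 1 to 4 on the left and cHet replicates 1 to 4 on the right of each panel, and the number of genes in brackets. The hemidesmosome and p63 target lists are lower in every cKO pool than in every cHet pool, and the liver genes stand at 9.65 in cKO replicate 3 against 4.51 to 4.74 in cHet pools.

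The Trp63 probe that passed the filter did not separate the genotypes. It read 9.07, 9.73, 9.43 and 9.91 in cKO vagina, 9.75, 9.57, 9.36 and 9.71 in cHet vagina and 4.54, 4.52, 4.60 and 4.75 in cHet uterus. The vaginal groups overlapped and differed by -0.06 (SE 0.17, adjusted p = 0.978), with -0.26 in the first set and 0.14 in the second. The sources used here do not state where in the transcript the floxed segment lies, and a probe outside it checks nothing. The organ labels were checked with 2 further genes. Isl1, a transcription factor gene, read 9.99, 9.90, 10.74 and 10.80 in cKO vagina, 9.83, 10.004, 10.88 and 10.74 in cHet vagina and 4.19, 4.2, 4.49 and 4.55 in cHet uterus. Hoxd10, a patterning gene, ran the other way, with 7.57, 7.30, 7.65 and 7.95 in cKO vagina, 7.42, 7.40, 7.70 and 7.56 in cHet vagina and 11.11, 10.87, 11.18 and 10.89 in cHet uterus. In both genes the vaginal pools and the uterine pools did not overlap.

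Between cKO and cHet vagina 44 of 11103 genes were called, 38 lower (0.342% of genes tested) and 6 higher (0.054%). Of the 44, 24 changed at least 2-fold, and the median difference was -1.07 among the lower genes and 1.23 among the higher ones. Pools of the 2 genotypes did not overlap in any of the 44, where over all genes 2.66% lay fully lower and 1.67% fully higher in cKO. Over all genes the median difference was -0.01, and 52.0% of genes were negative. Without cKO replicate 3 there were 23 lower and 7 higher genes, all 44 differences kept their sign, and the largest move was 0.30, in Col17a1. Of the 44 calls 19 were lost without it, namely Adam28, Alox12, Btbd11, Cdh16, Dennd2c, Gpx2, Hs3st1, Lamb3, Pard6g, Plek2, Ppl, Rasgrf1, Sfn, Slc52a3, Sox21, Tmprss13, Tmprss4, Tuft1 and Wif1. With the set of replicates entered as a block, 80 genes were lower (0.721%) and 14 higher (0.126%), or 94 in all (0.847%), among them all 44.

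**Figure D2:**
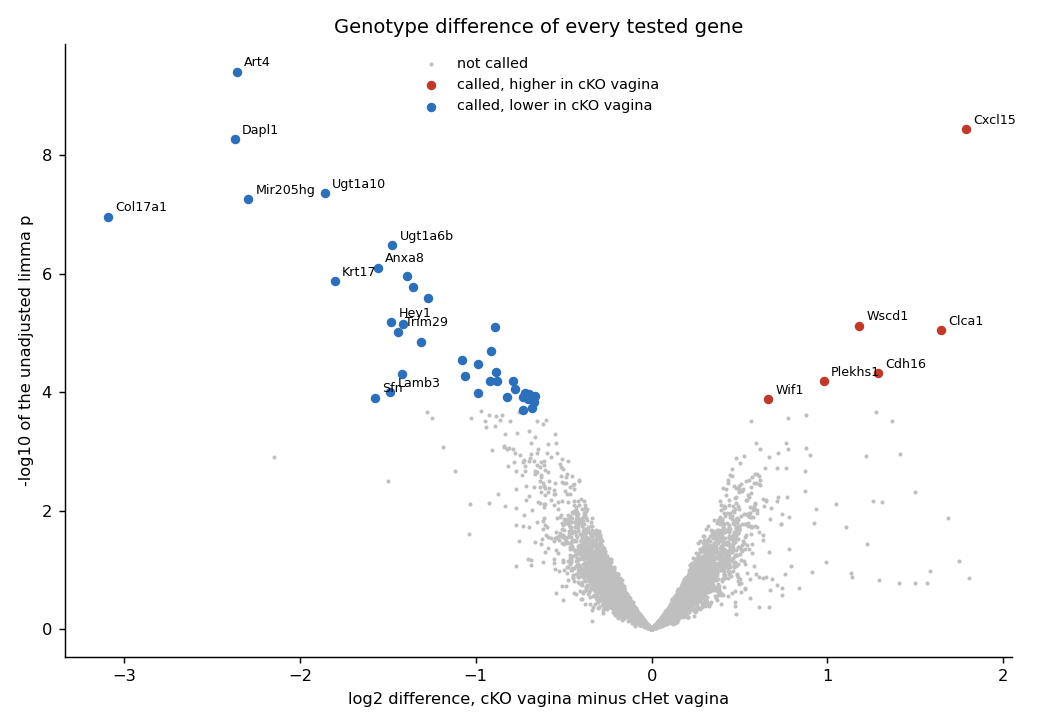
Log2 difference of cKO vagina minus cHet vagina for each of 11103 genes (x axis) against the -log10 of the unadjusted limma p (y axis). Blue points are the 38 genes called lower in cKO, red points the 6 called higher, and grey points the genes not called.

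Genes that anchor basal cells to the basement membrane held the largest fall. Col17a1, the transmembrane collagen of the hemidesmosome, read 7.07, 5.70, 4.79 and 5.17 in cKO vagina, against 8.94, 8.86, 8.59 and 8.72 in cHet vagina. The groups lay far apart, cKO replicate 1 being the highest of its group and cKO replicates 3 and 4 the lowest. The fall was 8.53-fold (log2 -3.09, SE 0.34, adjusted p = 0.000200), with -2.51 in the first set and -3.67 in the second, and without cKO replicate 3 the difference was -2.80 (adjusted p = 0.000385). In cHet uterus Col17a1 averaged 4.77, so 3 of 4 cKO pools were within 1 log2 unit of the uterine mean. Lamb3, the beta chain of laminin-332, read 6.68, 6.81, 6.02 and 5.74 in cKO vagina, against 8.13, 8.36, 7.20 and 7.50 in cHet vagina (log2 -1.49, SE 0.29, adjusted p = 0.0338). In both genotypes the Lamb3 level was higher in replicates 1 and 2 than in replicates 3 and 4, and the difference was -1.50 in the first set and -1.47 in the second. Without cKO replicate 3 it was -1.39 and no longer called (adjusted p = 0.0955).

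Of the 12 tested hemidesmosome and basement membrane genes 2 were called lower, 0 higher, and the median was -0.27 (-0.29 without cKO replicate 3). This list and those below were drawn up with earlier results of these data known, so their counts are descriptions only. Differences were negative in 11 of 12. The exception was Dst, with 0.20, and its other kept probes disagreed, with -1.09, 0.14 and 0.32. Over all genes 0.342% were called lower and 52.0% were negative. The integrin partners had small values that did not pass: Itgb4, the beta subunit of the hemidesmosomal integrin, had -0.49 (adjusted p = 0.596) and Itga6, its alpha subunit, -0.30 (adjusted p = 0.861). Col7a1, the anchoring fibril collagen, had -0.41 (adjusted p = 0.884), and Plec, the plakin inside the hemidesmosome, -0.11 (adjusted p = 0.959). Cd151, a tetraspanin of the same complex, had -0.11 (adjusted p = 0.942). Of the 5 tested desmosome genes, which join cells to each other, 0 were called, against 0.396% of all genes, with a median of -0.42. Dsg2, the desmoglein of simple and basal layers, had -0.42 (adjusted p = 0.497), and Perp, a desmosomal membrane protein, -0.45 (adjusted p = 0.245).

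Among keratins only Krt17 passed the test, and the basal keratins varied more from pool to pool. Krt17, a type I keratin of basal and appendage epithelium, read 11.16, 11.15, 10.11 and 10.31 in cKO vagina, against 12.71, 12.89, 12.17 and 12.17 in cHet vagina. Every cHet pool lay over 1 log2 unit above every cKO pool, and the fall was 3.48-fold (log2 -1.80, SE 0.24, adjusted p = 0.00149; -1.62 without cKO replicate 3), with -1.64 in the first set and -1.96 in the second.

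Krt14, the type I keratin of basal cells, read 10.05, 9.11, 6.77 and 8.59 in cKO vagina, against 11.25, 11.64, 10.20 and 10.01 in cHet vagina. The groups overlapped: cKO replicate 1 was above cHet replicate 4, and cKO replicate 3 was the lowest pool by far. Its difference of -2.15 did not pass (SE 0.55, adjusted p = 0.138), but within replicates 1 and 2 it was -1.87 (adjusted p = 0.0416) and within replicates 3 and 4 -2.43 (adjusted p = 0.0377). With the block of replicates the adjusted p was 0.00115, and without cKO replicate 3 the difference was -1.53 (adjusted p = 0.223).

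Krt15, a keratin of basal and progenitor cells, read 9.60, 9.16, 7.11 and 8.56 in cKO vagina, against 10.53, 11.01, 9.30 and 9.58 in cHet vagina. Here too cKO replicate 1 overlapped the cHet pools and cKO replicate 3 was lowest, with a difference of -1.50 (adjusted p = 0.229, and 0.0256 with the block), or -1.0 without cKO replicate 3. Krt5, the type II partner of Krt14, read 5.38, 4.71, 4.11 and 4.43 in cKO vagina, against 6.06, 6.63, 4.87 and 5.53 in cHet vagina, and was above background in 2 of 4 cKO pools. Its difference was -1.12 (adjusted p = 0.187, and 0.0255 with the block), and Krt5 was called without cHet replicate 3 (adjusted p = 0.0325). Krt90, a type II keratin gene, had -1.28 (adjusted p = 0.0506, and 0.00202 with the block), with no overlap between groups.

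The 10 stratified keratins had 1 call, 4 with the block, all lower, and a median of -0.13. Over all genes 0.342% were called lower, and 0.721% with the block. The other 6 tested, Krt4, Krt6a, Krt6b, Krt10, Krt13 and Krt23 lay between -0.21 and 0.48. Keratins of simple epithelium were present at high signal in both genotypes. Krt8 averaged 11.87 ± 0.30 in cKO vagina and 12.14 ± 0.40 in cHet vagina, with a difference of -0.27 (adjusted p = 0.858). Krt18, its partner, averaged 10.73 ± 0.36 in cKO vagina and 10.61 ± 0.14 in cHet vagina (log2, SD, n = 4 each), with a difference of 0.12 (adjusted p = 0.961). Of the 4 simple keratins tested 0 were called, against 0.396% of all genes, with a median of -0.26.

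Genes of squamous cells fell in part. Dapl1, a gene first found in early epithelial differentiation, read 5.13, 4.74, 4.32 and 5.27 in cKO vagina, against 6.97, 7.27, 7.37 and 7.34 in cHet vagina. All cKO pools were over 1.5 log2 units below all cHet pools, 1 of them not above background, and the fall was 5.17-fold (log2 -2.37, SE 0.21, adjusted p = 1.97e-05), with -2.19 in the first set and -2.55 in the second. Sfn, the 14-3-3 sigma protein of stratified epithelium, read 5.85, 5.91, 4.85 and 4.85 in cKO vagina, against 7.18, 7.82, 6.15 and 6.60 in cHet vagina (log2 -1.57, SE 0.31, adjusted p = 0.0352). Its cKO replicates 1 and 2 came close to cHet replicate 3 without overlap, and the difference was -1.62 in the first set and -1.53 in the second. Without cKO replicate 3 it was -1.40 and no longer called (adjusted p = 0.109).

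Anxa8, an annexin of stratified epithelium, read 6.36, 6.27, 5.72 and 5.68 in cKO vagina, against 7.15, 7.70, 7.45 and 7.95 in cHet vagina (log2 -1.56, SE 0.20, adjusted p = 0.00109). The gap between groups was wider in replicates 3 and 4, with -1.11 in the first set and -2.0 in the second (unadjusted p of the difference between sets 0.0164, adjusted p = 0.505). Trim29, a tripartite motif protein of basal cells, read 5.41, 4.83, 4.59 and 5.22 in cKO vagina, against 7.06, 6.72, 6.06 and 5.98 in cHet vagina (log2 -1.44, SE 0.23, adjusted p = 0.00583), with -1.77 in the first set and -1.11 in the second. None of the cHet uterus pools was above background for it. Ppl, the plakin of the cornified envelope, averaged 7.14 ± 0.05 in cKO vagina and 7.82 ± 0.25 in cHet vagina (log2 -0.68, SE 0.14, adjusted p = 0.0479), the smallest call of the list.

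Of the 21 squamous genes tested, a list also drawn up with earlier results known, 5 were called lower and 0 higher. The median was -0.25 (-0.27 without cKO replicate 3). Over all genes 0.342% were called lower. Members of late cornification did not pass. Lor, the loricrin gene, had -0.12 (adjusted p = 0.964), and Ivl, the involucrin gene, -0.17 (adjusted p = 0.962). Both had opposite signs in the sets: Lor had -0.61 in the first set and 0.38 in the second, and Ivl -0.82 in the first set and 0.49 in the second. In neither was the contrast between the sets called. Evpl, the partner plakin of Ppl, had -0.08 (adjusted p = 0.970). Cstb, the cystatin B gene, had -0.17 (adjusted p = 0.894). Of the 3 tested clade B serpins 0 were called, against 0.396% of all genes. Serpinb11 had -0.56 (adjusted p = 0.758), with -1.17 in the first set and 0.06 in the second (limma adjusted p of that contrast 0.486).

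Mir205hg, the host transcript of the epithelial microRNA miR-205, was among the 4 largest falls. It read 5.51, 5.48, 4.67 and 5.22 in cKO vagina, against 7.86, 7.98, 7.24 and 6.97 in cHet vagina. No cKO pool came within 1 log2 unit of a cHet pool, and the fall was 4.90-fold (log2 -2.29, SE 0.24, adjusted p = 0.000121; -2.11 without cKO replicate 3). Both sets showed it, with -2.42 in the first set and -2.16 in the second. The mature products of the hairpin are printed below because the array read only their host. They come from RefSeq on GRCm38.p6, lie on the minus strand at chr1:193507503-193507524 and chr1:193507467-193507488, and have the seed, bases 2 to 8, in capitals. The 2 arms have different seeds, and the level of neither was measured.
mmu-miR-205-5p: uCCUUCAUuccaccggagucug
mmu-miR-205-3p: gAUUUCAGuggagugaagcuca

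Mir205hg, Col17a1, Sfn and Trim29 belonged to a list of genes known as p63 targets in skin, drawn up with earlier results of these data known. Of its 22 tested members 5 were called lower, those 4 and Tfap2c, and 0 higher, where 0.342% of all genes were called lower. With the block the count was 10 lower, adding Krt14, Krt5, Zfp750, Grhl3 and Fgfr2, where 0.721% of all genes were called lower. Differences were negative in 21 of 22, against 52.0% of all genes, with a median of -0.39 (-0.41 without cKO replicate 3). The list mean was 5.91 to 6.35 in cKO pools and 6.72 to 7.17 in cHet pools, with no overlap. The exception in sign was Cdkn1a, the p21 cell cycle inhibitor, with 0.06 (adjusted p = 0.987). Of these targets Jag1 and Jag2, Notch ligand genes, had -0.09 and -0.27 (adjusted p = 0.982 and 0.789), and Itga3, the alpha 3 integrin, -0.22 (adjusted p = 0.904).

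The wider p53 family and its damage response genes showed no call among 13 tested, with a median of -0.04. Over all genes 0.396% were called, so a short list without a call is not set apart from other genes. Plk2, a p53-induced kinase, had 0.88 (adjusted p = 0.121), and Phlda3, a p53-induced repressor of Akt, -0.73 (adjusted p = 0.151). Within replicates 1 and 2 Phlda3 was called lower (-1.21, adjusted p = 0.00976), against -0.25 within replicates 3 and 4 (adjusted p = 0.999). The contrast between the sets was called for 0 of 11103 genes, so these values were not shown to differ.

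The letters bound by p53 family proteins were looked for in the 250 bases before each gene's start, in RefSeq promoters of GRCm38.p6. The motif was the p53 consensus half-site, known by that name, which reads the same on both strands. Of the 38 lower genes 24 had a promoter entry and 3 of these held the motif (12.5%), while 0 of the 4 higher genes with an entry did. Over all tested genes 665 of 8938 promoters held it (7.44%). The 3 windows, and that of Krt5, are printed with the motif in capitals, to show where these letters lie. Krt5, which was called only with the block, was added as a basal keratin. All 4 genes are on the minus strand. The windows cover chr6:136857640-136857699 for Art4, chr14:34374733-34374792 for Sncg, chr11:70255402-70255461 for Alox12 and chr15:101712966-101713025 for Krt5, and the motif begins 74, 98, 66 and 95 bases before the start of each gene in that order. Such a match describes the letters and is no evidence of binding.
Art4: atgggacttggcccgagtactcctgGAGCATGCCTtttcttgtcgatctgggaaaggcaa
Sncg: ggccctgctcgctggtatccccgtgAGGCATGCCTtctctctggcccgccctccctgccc
Alox12: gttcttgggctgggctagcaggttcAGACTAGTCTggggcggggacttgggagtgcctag
Krt5: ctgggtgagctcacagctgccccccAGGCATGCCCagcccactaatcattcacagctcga

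**Figure D3:**
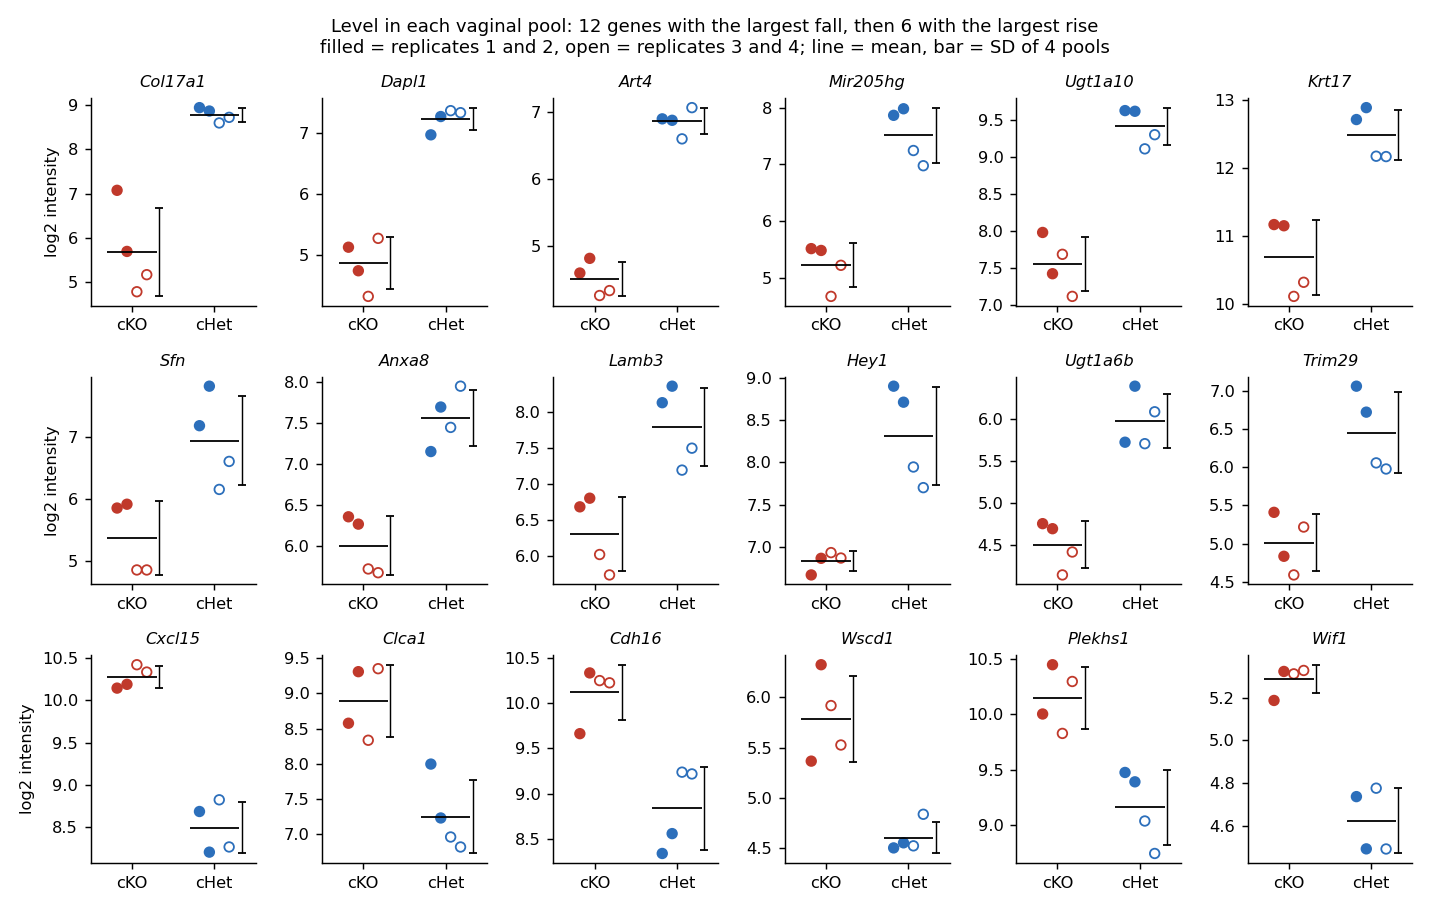
Log2 intensity in each vaginal pool for the 12 genes with the largest fall and the 6 that rose, with cKO pools left of cHet pools, replicates 1 and 2 filled and replicates 3 and 4 open, the line at the mean and the bar at 1 SD of 4 pools. In every panel the 4 cKO pools lie apart from the 4 cHet pools.

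Art4 and Sncg, 2 of the genes with that motif, were among the most evenly separated. Art4, a cell surface ADP-ribosyltransferase, read 4.59, 4.81, 4.26 and 4.33 in cKO vagina, against 6.89, 6.87, 6.59 and 7.06 in cHet vagina. Its cKO pools were above background in 2 of 4 arrays and lay below the cHet uterus pools, which read 5.57, 5.12, 4.85 and 5.09. The fall of 5.13-fold (log2 -2.36, SE 0.17, adjusted p = 4.29e-06) had the lowest p of the comparison, with -2.18 in the first set and -2.54 in the second. Sncg, the gamma-synuclein gene, averaged 5.25 ± 0.23 in cKO vagina and 6.64 ± 0.24 in cHet vagina (log2 -1.39, SE 0.18, adjusted p = 0.00132). Alox12, an arachidonate lipoxygenase, averaged 6.52 ± 0.14 in cKO vagina and 7.51 ± 0.36 in cHet vagina (log2 -0.99, SE 0.19, adjusted p = 0.0338), and -0.95 without cKO replicate 3 (adjusted p = 0.0938).

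Transcription factor genes of epithelium showed calls in 2 of 18 tested, both lower, and in 6 with the block. Over all genes 0.342% were called lower, and 0.721% with the block. Sox21, a SOX factor of hair and other epithelia, read 4.92, 5.05, 5.07 and 5.27 in cKO vagina, against 6.65, 6.45, 5.73 and 5.73 in cHet vagina (log2 -1.06, SE 0.19, adjusted p = 0.0227). The groups did not overlap, but cHet replicates 3 and 4 lay close to the cKO pools, and the difference was -1.56 in the first set and -0.56 in the second (unadjusted p of that contrast 0.00117, adjusted p = 0.448). Without cKO replicate 3 the adjusted p of Sox21 was 0.0612. Tfap2c, the AP-2 gamma factor of surface ectoderm, averaged 6.39 ± 0.26 in cKO vagina and 7.17 ± 0.14 in cHet vagina (log2 -0.78, SE 0.15, adjusted p = 0.0312).

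With the block further factors were called: Zfp750, an epidermal differentiation factor, at -1.25 (adjusted p = 0.00982), and Foxq1, a forkhead factor, at -1.18 (adjusted p = 0.0470). Foxq1 had -1.88 in the first set and -0.49 in the second (unadjusted limma p of that contrast 0.000856, adjusted p = 0.448). Elf5, an ETS factor of secretory and glandular epithelium, had -0.89 (adjusted p = 0.00697), and Grhl3, a grainyhead factor of barrier epithelium, -0.87 (adjusted p = 0.0239). Without the block their adjusted p was 0.0549, 0.120, 0.0648 and 0.296 in that order. At their other kept probes Elf5 had -0.29 and Grhl3 -0.63. Bcl11b, a zinc finger factor of skin and T cells outside the list, had -0.95 (adjusted p = 0.0559, and 0.0183 with the block). Without cKO replicate 3 Bcl11b had -1.15 and was called (adjusted p = 0.00929). The median of the 18 was -0.36. Klf5 had -0.47 (adjusted p = 0.449), Isl1 -0.01 (adjusted p = 0.9998), and Runx1 -0.22 (adjusted p = 0.927). The difference of Runx1 was -0.59 in the first set and 0.16 in the second (limma adjusted p of that contrast 0.528).

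In the Notch pathway, which passes signals between neighbouring cells through membrane ligands, 1 of 10 genes was called, against 0.396% of all genes. Hey1, a repressor switched on by Notch, read 6.67, 6.86, 6.93 and 6.87 in cKO vagina, against 8.90, 8.71, 7.94 and 7.70 in cHet vagina. The cKO pools were alike, while cHet replicates 1 and 2 stood about 1 log2 unit above cHet replicates 3 and 4. Hey1 fell 2.79-fold (log2 -1.48, SE 0.22, adjusted p = 0.00553), with -2.04 in the first set and -0.92 in the second (unadjusted p of that contrast 0.00134, adjusted p = 0.448). Other targets did not pass: Nrarp, a feedback inhibitor, had -0.58 (adjusted p = 0.231) and Hes1, a repressor, -0.41 (adjusted p = 0.752). The receptor gene Notch1 had -0.22 (adjusted p = 0.874), and the list median was -0.16.

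Of the EGF receptor and ligand genes 1 of 5 was called, against 0.396% of all genes. Egfr, the receptor, read 7.91, 7.49, 7.96 and 7.60 in cKO vagina, against 8.74, 8.35, 8.88 and 8.63 in cHet vagina, with the groups apart (log2 -0.91, SE 0.15, adjusted p = 0.0113). Its ligand genes Hbegf and Btc had 0.30 and 0.05 (adjusted p = 0.784 and 0.981), and Erbb2, a related receptor, -0.08 (adjusted p = 0.970).

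Wnt genes had 1 call among 17, and it was a rise, where 0.054% of all genes were called higher. Wif1, a secreted inhibitor that binds Wnt ligands, read 5.19, 5.32, 5.31 and 5.33 in cKO vagina, against 4.74, 4.49, 4.78 and 4.49 in cHet vagina, at low signal in both groups (log2 0.66, SE 0.13, adjusted p = 0.0353), with 0.64 in the first set and 0.69 in the second. It was not called without cKO replicate 3 (adjusted p = 0.0997). Wnt4, a ligand needed for the Müllerian duct, had -0.84 (adjusted p = 0.0825) and was called lower with the block (adjusted p = 0.0417). Sfrp1, a secreted frizzled-related inhibitor, had -0.55 (adjusted p = 0.237), and the list median was -0.05.

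FGF and BMP genes had 0 calls among 12 and 14 tested, against 0.396% of all genes, with medians of -0.04 and 0.02. Fgfr2, the receptor for mesenchymal FGF7 and FGF10, averaged 10.23 ± 0.12 in cKO vagina and 10.78 ± 0.16 in cHet vagina, a difference of -0.55 (adjusted p = 0.0825) that was called lower with the block (adjusted p = 0.0301). Its other kept probes had 0.12 and -0.00 for Fgfr2. Fst, the activin antagonist follistatin, had -0.70 (adjusted p = 0.0751) and was called lower with the block (adjusted p = 0.0317). Id2, a BMP-responsive inhibitor of differentiation, had 0.07 (adjusted p = 0.970), but -0.42 and 0.55 at its other kept probes.

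A further 26 called genes belonged to none of the 34 lists, and 24 of these were lower. Ugt1a10, a UDP-glucuronosyltransferase, read 7.98, 7.42, 7.68 and 7.12 in cKO vagina, against 9.62, 9.61, 9.10 and 9.30 in cHet vagina, a gap of over 1 log2 unit between the groups (log2 -1.86, SE 0.19, adjusted p = 0.000121), with -1.92 in the first set and -1.80 in the second. Ugt1a6b, of the same gene cluster, read 4.75, 4.69, 4.14 and 4.41 in cKO vagina, against 5.72, 6.39, 5.70 and 6.08 in cHet vagina (log2 -1.47, SE 0.18, adjusted p = 0.000517), with -1.33 in the first set and -1.62 in the second, and was above background in 2 of 4 cKO pools. The genes of this cluster share exons at one end, so which transcript a probe read is uncertain. Cbr2, a carbonyl reductase, averaged 7.70 ± 0.23 in cKO vagina and 9.11 ± 0.31 in cHet vagina (log2 -1.41, SE 0.22, adjusted p = 0.00553). Gpx2, a glutathione peroxidase of epithelium, differed by -0.70 (adjusted p = 0.0353), and Acer3, an alkaline ceramidase, by -0.89 (adjusted p = 0.00553).

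Diras2, a Ras-like GTPase, averaged 5.20 ± 0.20 in cKO vagina and 6.62 ± 0.53 in cHet vagina (log2 -1.42, SE 0.26, adjusted p = 0.0219), with -1.75 in the first set and -1.09 in the second. Camk4, a calcium-dependent kinase, averaged 5.40 ± 0.25 in cKO vagina and 6.71 ± 0.39 in cHet vagina (log2 -1.31, SE 0.21, adjusted p = 0.00841). Tnfaip2, a gene induced by TNF, averaged 5.66 ± 0.11 in cKO vagina and 6.93 ± 0.42 in cHet vagina (log2 -1.27, SE 0.18, adjusted p = 0.00241), with -1.62 in the first set and -0.92 in the second. Among membrane transporters, Slco2a1, which carries prostaglandins, had a difference of -1.08 (adjusted p = 0.0150), Slc34a2, a phosphate carrier, of -0.92 (adjusted p = 0.0244), and Slc52a3, a riboflavin carrier, of -0.79 (adjusted p = 0.0244). Among membrane proteases, Tmprss13 had -0.73 (adjusted p = 0.0497), Tmprss4 -0.67 (adjusted p = 0.0384) and Adam28 -0.72 (adjusted p = 0.0338). The remaining lower genes were Plek2, a pleckstrin (-0.99, adjusted p = 0.0168), Btbd11 (-0.89, adjusted p = 0.0217), Dennd2c, a Rab exchange factor (-0.88, adjusted p = 0.0244), and Pard6g, a cell polarity protein (-0.82, adjusted p = 0.0352). Rasgrf1, a Ras exchange factor (-0.73, adjusted p = 0.0352), Tuft1 (-0.70, adjusted p = 0.0338) and Hs3st1, a heparan sulfate sulfotransferase (-0.67, adjusted p = 0.0352), completed them.

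The 6 genes that rose (0.054% of genes tested) included 3 of the 15 tested genes of secretory and ductal epithelium. That list was drawn up with earlier results of these data known, and 8 of its differences were positive and 7 negative. Cxcl15, a chemokine of mucosal and glandular epithelium, read 10.15, 10.19, 10.43 and 10.34 in cKO vagina, against 8.68, 8.20, 8.82 and 8.26 in cHet vagina. The cKO pools spanned under 0.3 log2 units and lay over 1 unit above all cHet pools. The rise was 3.45-fold (log2 1.79, SE 0.15, adjusted p = 1.97e-05; 1.74 without cKO replicate 3), with 1.73 in the first set and 1.84 in the second. No cHet uterus pool was above background for it.

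Clca1, a secreted protein of mucus-producing cells, read 8.58, 9.31, 8.33 and 9.35 in cKO vagina, against 7.99, 7.23, 6.95 and 6.81 in cHet vagina. The groups were apart, with cHet replicate 1 the nearest to the cKO pools, and the rise was 3.13-fold (log2 1.65, SE 0.26, adjusted p = 0.00583), with 1.33 in the first set and 1.96 in the second. Cdh16, a cadherin of kidney tubules and ducts, read 9.66, 10.34, 10.25 and 10.23 in cKO vagina, against 8.33, 8.56, 9.24 and 9.22 in cHet vagina (log2 1.28, SE 0.23, adjusted p = 0.0219). Here cKO replicate 1 was the lowest of its group and cHet replicates 3 and 4 the highest of theirs, without overlap. The difference was 1.56 in the first set and 1.01 in the second, and without cKO replicate 3 it was 1.24 and not called (adjusted p = 0.0641). The list median was 0.10 (0.06 without cKO replicate 3). Wfdc2, a secreted protease inhibitor of the reproductive tract, had -0.14 (adjusted p = 0.913).

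Wscd1, a gene with a sulfotransferase domain, read 5.37, 6.32, 5.92 and 5.53 in cKO vagina, against 4.50, 4.55, 4.52 and 4.84 in cHet vagina (log2 1.18, SE 0.18, adjusted p = 0.00553), with 1.32 in the first set and 1.04 in the second, and was above background in 3 of 4 cHet pools. Plekhs1 read 10.003, 10.45, 9.83 and 10.30 in cKO vagina, against 9.48, 9.39, 9.04 and 8.75 in cHet vagina (log2 0.98, SE 0.18, adjusted p = 0.0244), and its cKO pools also lay above the cHet uterus pools (9.72, 9.64, 9.34 and 9.37). Among genes called higher with the block alone, Wfdc18 had 1.37 (adjusted p = 0.0559, and 0.0211 with the block). Csta2, a stefin protease inhibitor gene, had 1.27 (adjusted p = 0.0506, and 0.0147 with the block). Without cKO replicate 3 the Csta2 difference was smaller, at 0.91, but was called (adjusted p = 0.0405). Ssb, the La RNA-binding protein, had 0.90 (adjusted p = 0.0431 with the block), and G6pc2, a glucose-6-phosphatase, 0.88 (adjusted p = 0.0269 with the block). The difference of Ssb was 1.43 in the first set and 0.38 in the second (unadjusted limma p of that contrast 0.00265, adjusted p = 0.461).

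The lower genes called with the block alone included Pdgfa, a growth factor made by epithelium, at -0.97 (adjusted p = 0.0506, and 0.00588 with the block). Cldn23, a claudin, had -0.88 (adjusted p = 0.00184 with the block), and Plau, the urokinase protease, -0.91 (adjusted p = 0.0269 with the block). Without cKO replicate 3 Plau had -1.09 and was called (adjusted p = 0.0405). Fmo1, a drug-oxidising enzyme, had -1.03, Slc14a1, a urea carrier, -1.03, and Gsta2, a glutathione transferase, -0.92 (adjusted p = 0.00993, 0.0269 and 0.0147 with the block). Gsta2 had -1.33 in the first set and -0.51 in the second (unadjusted limma p of that contrast 0.00862, adjusted p = 0.486). Ctsa, a lysosomal peptidase, had -1.04 and 2610035D17Rik -0.94 (adjusted p = 0.00401 and 0.0265 with the block). The fall of Ctsa rests on 1 of its 4 kept probes, the others having 0.15, -0.02 and -0.10. In all 50 genes were called with the block alone, 42 lower and 8 higher, and groups of pools did not overlap in 40 of them. Over all genes 2.66% lay fully lower and 1.67% fully higher in cKO. The same pools chose these 50 genes, so the count of 40 is a description only.

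**Figure D4:**
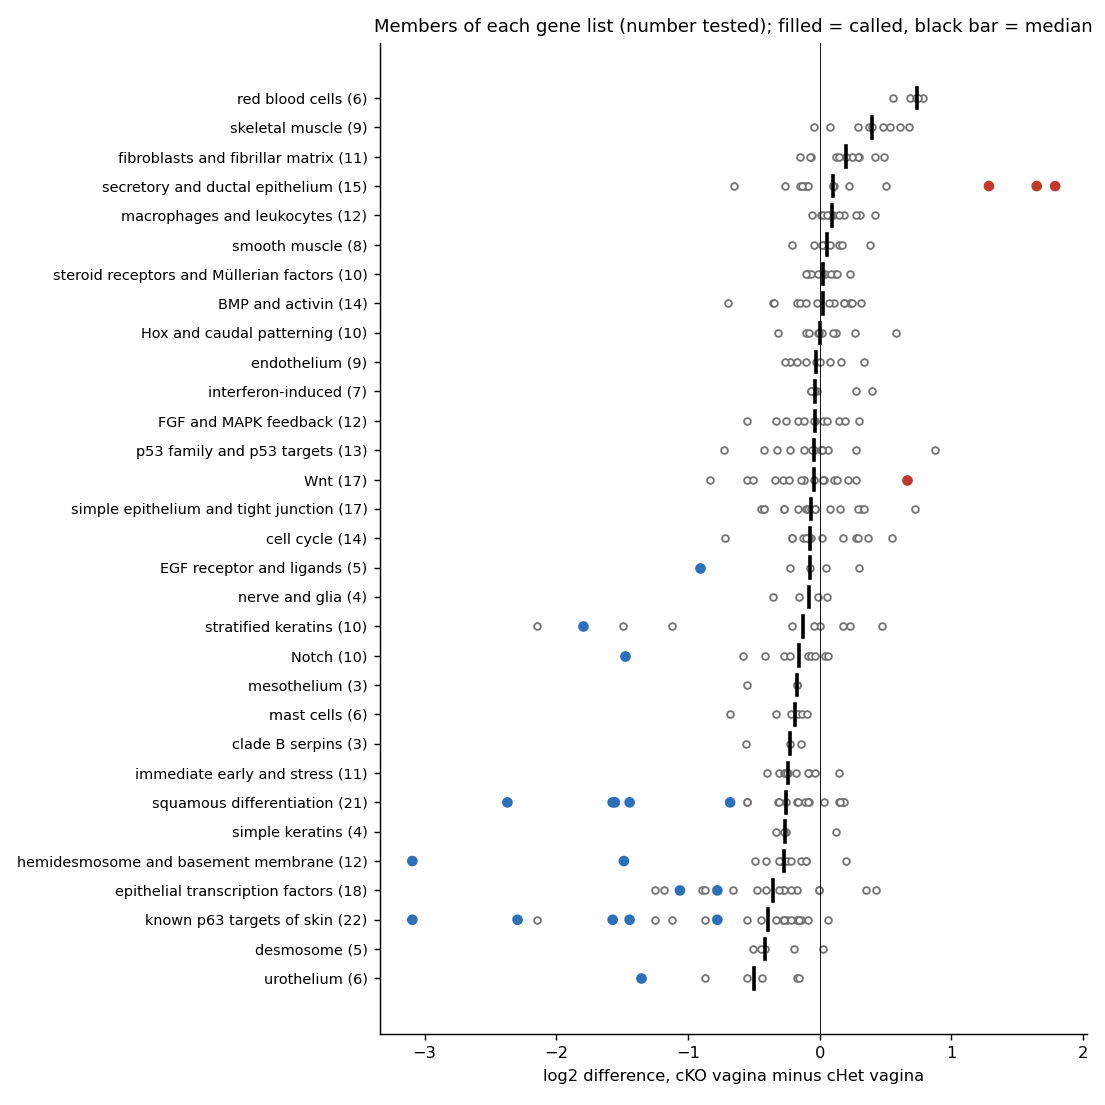
Log2 difference of cKO vagina minus cHet vagina for each tested member of the lists with at least 3 tested genes, one list per row, with the number tested in brackets. Filled points are called genes, blue lower and red higher in cKO, and the black bar is the list median, from 0.74 for red blood cells at the top to -0.50 for urothelium at the bottom.

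Lists of the tight junction, of patterning and of hormone response had 0 calls, where 0.396% of all genes were called. The 17 genes of simple epithelium and tight junction had a median of -0.07, and Rab25, a trafficking GTPase of epithelium, had -0.17 (adjusted p = 0.904). Epcam, the surface adhesion protein of simple epithelium, had 0.72 (adjusted p = 0.130), with 1.05 in the first set and 0.39 in the second. The 10 Hox and caudal genes had a median of 0.01, Hoxa13, of the most caudal tract, having 0.12 (adjusted p = 0.955) and Hoxd10 0.10 (adjusted p = 0.955). The 10 steroid receptor and Müllerian genes had a median of 0.03, Esr1, the oestrogen receptor, having 0.04 (adjusted p = 0.987).

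Cell cycle genes (14 tested, median -0.07), immediate early genes (11, median -0.24) and interferon-induced genes (7, median -0.04) had 0 calls as well, against 0.396% of all genes. Ccnd1, the cyclin D1 gene, had -0.13 (adjusted p = 0.930), Egr1, an immediate early factor, 0.14 (adjusted p = 0.959), and Ifitm3, an interferon-induced membrane protein, -0.06 (adjusted p = 0.977).

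Of the 13 lists of other cell types 1 held a call. Upk2, a uroplakin of the bladder lining, averaged 7.44 ± 0.23 in cKO vagina and 8.80 ± 0.29 in cHet vagina, a fall of 2.56-fold (log2 -1.36, SE 0.18, adjusted p = 0.00171). The other uroplakins did not pass, with -0.44 for Upk1a, -0.17 for Upk1b, -0.15 for Upk3a and -0.55 for Upk3b, and the median of the 6 urothelium genes was -0.50 (-0.35 without cKO replicate 3). Their mean level was 5.61 to 6.48 in cKO pools and 6.48 to 7.23 in cHet pools, and their part in the other falls was not tested. The red blood cell median of 0.74 was 0.40 without cKO replicate 3, and the skeletal muscle median of 0.40 was -0.04 without it. Hba-a1, the alpha globin gene, read 13.83, 13.24, 14.84 and 13.54 in cKO vagina, against 12.90, 12.99, 13.32 and 13.28 in cHet vagina (0.74, adjusted p = 0.434).

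Stromal and immune lists had medians of 0.06 for smooth muscle (8 tested), 0.20 for fibroblasts (11), 0.09 for leukocytes (12), -0.19 for mast cells (6) and -0.03 for endothelium (9). Acta2, the smooth muscle actin, had 0.03 (adjusted p = 0.988), Dcn, the fibroblast proteoglycan decorin, -0.07 (adjusted p = 0.966), and Esam, an endothelial adhesion protein, -0.23 (adjusted p = 0.867). Cd14, of macrophages, had 0.18 (adjusted p = 0.928), and Hdc, the histamine-forming enzyme of mast cells, -0.13 (adjusted p = 0.979). Hdc was also far higher in replicates 3 and 4 than in 1 and 2 of both genotypes, with 10.23, 10.22, 11.37 and 11.29 in cKO vagina and 9.9999, 10.25, 11.88 and 11.51 in cHet vagina. The mast cell list did not share this pattern. The mean of its 6 tested genes, Hdc included, was 7.22, 6.85, 6.60 and 6.08 in cKO vagina and 7.13, 6.74, 6.89 and 7.07 in cHet vagina.

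Replicates 1 and 2 were then set beside replicates 3 and 4. Within replicates 1 and 2, 93 genes were lower (0.838% of genes tested) and 71 higher (0.639%) in cKO. Within replicates 3 and 4, 11 were lower (0.0991%) and 4 higher (0.036%). These counts moved widely: with array weights they were 44 lower and 21 higher in replicates 1 and 2, and 32 lower and 15 higher in replicates 3 and 4. Without cHet replicate 1, replicates 1 and 2 gave 30 lower and 10 higher, without cKO replicate 2 they gave 43 and 29, and without cKO replicate 4, replicates 3 and 4 gave 15 lower and 44 higher. Without cKO replicate 1 or cHet replicate 2, 3 or 4 the higher genes of replicates 1 and 2 numbered 24 to 46, and the lower ones were 60 without cKO replicate 1 and 62 without cHet replicate 2. Without cHet replicate 4, replicates 3 and 4 gave 7 lower and 2 higher. Of the 44 genes called over all pools, which these same pools chose, all kept their sign in both sets, 34 were called again in replicates 1 and 2 and 13 in replicates 3 and 4. Their median size was 1.26 in replicates 1 and 2 and 0.995 in replicates 3 and 4. The difference was larger in replicates 1 and 2 for 28 of the 44 (63.6%), against 61.4% of all genes.

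Within both sets 12 genes were called, 11 lower and 1 higher. The lower ones were Anxa8, Art4, Col17a1, Dapl1, Krt14, Krt17, Lamb3, Mir205hg, Sfn, Ugt1a10 and Ugt1a6b, and the higher one Cxcl15. Clca1 and Plekhs1 were called in replicates 3 and 4 and not in replicates 1 and 2 (adjusted p = 0.0213 and 0.0387, against 0.0569 and 0.0758), but their differences of 1.96 and 1.17 were not shown to differ from the 1.33 and 0.79 of replicates 1 and 2 (adjusted p of the contrast 0.733 and 0.746). Cp, the copper carrier ceruloplasmin, was the remaining call of replicates 3 and 4 (1.11, adjusted p = 0.0485). It read 4.96, 4.94, 6.21 and 5.72 in cKO vagina, against 4.55, 4.85, 4.97 and 4.74 in cHet vagina, with the pool that held liver transcripts the highest.

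**Figure D5:**
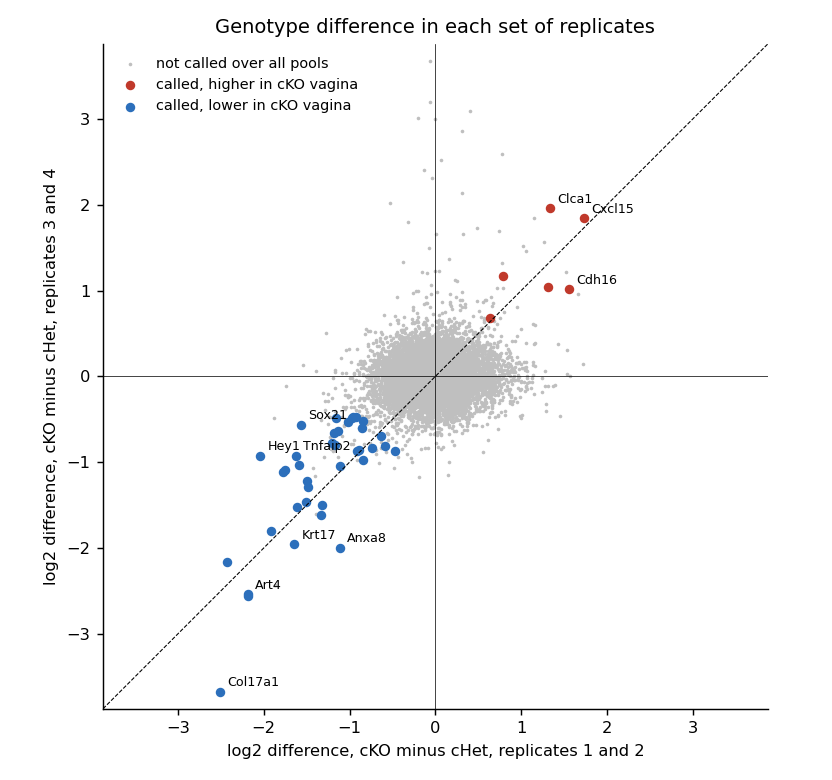
Log2 difference of cKO minus cHet vagina in replicates 1 and 2 (x axis) against that in replicates 3 and 4 (y axis) for each of 11103 genes, with called genes in blue (lower) and red (higher) and the dashed line marking equal differences. The 44 called genes keep their sign in both sets. Across all 11103 genes, the called ones included, the differences of the sets correlate at 0.18.

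Tested directly by limma, a change in the genotype difference between the sets was called for 0 of 11103 genes, with 998 at an unadjusted p under 0.05. Calls numbered 2 without cHet replicate 2 and 32 without cKO replicate 4. Across all genes the differences of the sets, which share no pool, correlated at 0.18, and genes within an array are not independent. A further 130 genes were called in replicates 1 and 2 but not over all pools, 62 lower and 68 higher. That choice favours a large difference in the first set and a small one in the second. Their median size was 1.04 in replicates 1 and 2, and the median in replicates 3 and 4, counted in the same direction, was 0.10.

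In several of the higher ones cHet replicates 1 and 2 were the low pools, and the 3 that follow were picked after their values were seen. Clic1, a chloride channel protein, read 7.20, 7.26, 6.81 and 6.79 in cKO vagina, against 5.05, 5.96, 6.68 and 6.63 in cHet vagina, with 1.72 in the first set and 0.14 in the second. Pcna, the replication clamp, read 8.53, 8.75, 8.28 and 8.27 in cKO vagina, against 7.45, 7.59, 8.24 and 8.36 in cHet vagina, with 1.12 in the first set and -0.02 in the second. Cd24a, a surface glycoprotein of epithelial and blood cells, read 7.23, 7.43, 6.57 and 6.83 in cKO vagina, against 5.68, 6.22, 6.66 and 6.96 in cHet vagina, with 1.37 in the first set and -0.11 in the second. In Pcna and Cd24a the groups overlapped, and in Clic1 cHet replicates 3 and 4 came close to cKO replicates 3 and 4 without overlap. The adjusted p of the contrast between sets was 0.422 for Clic1, 0.448 for Pcna and 0.448 for Cd24a.

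The cHet vagina pools of the comparison above were also set beside the cHet uterus pools. Of the 38 lower genes 37 had a higher mean in cHet vagina than in cHet uterus, against 47.8% of all genes. Since a high level in those same pools helped to choose the genes, this is a description only. The cKO mean lay between those of cHet vagina and cHet uterus in 27 of the 38, and at or below the uterine mean in 11. Trim29, Rasgrf1, Tmprss13, Adam28 and Tmprss4 had no uterus pool above background. Hs3st1 was the gene with a higher uterine mean, at 7.05, 7.38, 7.23 and 7.0 in cHet uterus. All 6 genes that rose had a cKO mean above the uterine mean, and Cxcl15 and Wscd1 had no uterus pool above background. High levels in the same cKO pools helped to choose these 6, so this too is a description only.

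Probes that read the same gene gave a further view. Of the 44 genes 20 had at least 1 other kept probe, 31 in all, of which 30 had the same sign and 10 were called when every probe was adjusted on its own. Col17a1 had -1.31 and -2.56 at its other probes against -3.09, the widest gap among the 31, Ugt1a10 -1.92 and -1.59, Anxa8 -1.15, Diras2 -1.21, Trim29 -0.82 and Clca1 1.47. Probes also disagreed for Btbd11, whose other probe had 0.00 against -0.89, for Ppl, with -0.47 and -0.00 against -0.68, and for Sncg, with -0.30 against -1.39. Egfr had -0.79, -0.41, -0.28 and -0.19 at its other probes, against -0.91 at the one that stood for the gene. In 28 of the 31 the other probe had the smaller difference.

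Leaving out any 1 vaginal pool kept 19 of the 44 calls. The other 25 were lost without at least 1 pool. They were Adam28, Alox12, Btbd11, Cdh16, Dennd2c, Diras2, Egfr, Gpx2, Hs3st1, Lamb3, Pard6g, Plek2, Plekhs1, Ppl, Rasgrf1, Sfn, Slc34a2, Slc52a3, Slco2a1, Sox21, Tfap2c, Tmprss13, Tmprss4, Tuft1 and Wif1. Without cKO replicates 1, 2, 3 and 4 in turn, 19, 16, 19 and 17 of the 44 were lost, with adjusted p of 0.0525 to 0.153. Without cHet replicates 1, 2, 3 and 4 in turn, 23, 21, 9 and 9 were lost, with adjusted p of 0.0550 to 0.197. Egfr was lost without cHet replicate 1 alone, and Slco2a1 without cHet replicate 1 or cKO replicate 4. Sfn and Lamb3 were lost without cHet replicates 1 or 2 or cKO replicates 3 or 4, and Lamb3 also without cKO replicate 1. Art4, Col17a1, Cxcl15, Dapl1, Krt17, Mir205hg, Ugt1a10 and Ugt1a6b were called under every alternative in which they could be tested.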

How the data were processed

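Expression was measured on 1-colour Illumina mouse bead arrays of biotin-labelled cRNA, per the labels' protocols. The deposited series table holds 1 linear intensity per probe and array, processed by the authors. The sources used here do not state how they scaled it. A further 24 columns of per-sample values matched no sample label and were not used.

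Each array's background was the mode of its 45281 intensities, with an SD from the values below it. Intensities were corrected with normexp (offset 16), quantile normalised and put on the log2 scale with limma 3.58.1 in R 4.3.3. Probes above the 99% quantile of background on at least 4 of 12 arrays were kept (20568, of which 17529 had 1 symbol in the platform annotation), and the brightest stood for its gene. Of all probes 34885 had 1 symbol, 18 several and 10378 none, 78 had no match by gene identifier in the reference gene table, and 0 symbols changed. Precision is limited by the number of arrays.

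Group means were fitted over all 12 arrays with lmFit and eBayes, with 15.8 degrees of freedom. A second fit gave each group and set of replicates its own mean. Whether replicate numbers pair pools was checked from deviations about the group means: same-numbered pools correlated at 0.07, 0.49, 0.13 and 0.26 across genes, so the numbers were not taken as pairs. The fit was tested on simulated data. Named genes are those called over all pools, the 20 with the largest difference called only with the block, each list's called and brightest members, and 11 fixed genes. Further genes were named after their values were seen. Members and lists were chosen with earlier results of these data known, and the liver list after its pool was seen. Alternatives changed background correction, scaling, filter, probe summary, arrays fitted, weights, blocks and pools.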

Additional observations from a re-analysis of the deposited data

Results flagged for a closer look

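Among 142 groups of 4 pools screened for a single distant pool, 3 were flagged, and chance flags about 1 in 20. Cdh16 was low in cKO vagina replicate 1, at 9.66 where the nearest cKO pool had 10.23. Wif1 was low in cKO vagina replicate 1, at 5.19 where the nearest cKO pool had 5.31. Wscd1 was high in cHet vagina replicate 4, at 4.84 where the nearest cHet pool had 4.55. In each of the 3 genes the groups of pools did not overlap.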

How the results depend on the processing

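Over 22 alternatives the 44 called genes never changed sign, and 8 of them stayed called throughout. Of 747 values of list medians 691 moved by less than the SD of the list's mean level over the 4 cKO pools, and 56 by at least that. This SD takes in cKO replicate 3, the highest cKO pool for the red blood cell and skeletal muscle lists, so it is a loose limit there. With the set of replicates as a block there were 80 lower and 14 higher genes, and with the replicate block 64 and 13; all 44 genes were called under both. Fitting the 8 vaginal arrays alone gave 25 lower, replicates 3 and 4 alone 10 lower, and replicates 1 and 2 alone 22 higher. Within replicates 3 and 4, higher genes numbered 1 with an offset of 50, with no background correction, with no filter and with the 8 vaginal arrays alone. With no filter, where 19057 genes were tested, 58 lower and 42 higher genes were called within replicates 1 and 2 and 5 lower within replicates 3 and 4; testing every probe gave 17 lower within replicates 3 and 4. Array weights gave 44 lower and 21 higher within replicates 1 and 2, and 32 and 15 within replicates 3 and 4. Leaving out 1 pool gave 17 to 41 lower and 4 to 7 higher genes, 30 to 92 and 10 to 64 within replicates 1 and 2, 7 to 15 and 1 to 44 within replicates 3 and 4, and 0 to 32 whose difference differed between the sets. Lower genes numbered 17 without cHet replicate 1, 19 without cHet replicate 2, 22 without cKO replicate 1, 23 without cKO replicate 3 and 25 without cKO replicate 4; the 44 higher within replicates 3 and 4 came without cKO replicate 4. A set left with 1 pool is assumed to vary like the other groups.

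Of the genes that turned sign none was called over all pools. Esr1 had -0.0049 under median scaling, -0.157 in replicates 3 and 4 alone, -0.134 without cKO replicate 1 and -0.0232 without cHet replicate 4. Trp63 had 0.00775 with array weights, 0.135 in replicates 3 and 4 alone and 0.0937 without cKO replicate 1, leaving out 1 pool giving -0.186 to 0.0937. Replicates 3 and 4 alone gave -0.0989 for Krt18 and 0.157 for Runx1. They also gave 0.289 for Ctsa, at another probe that was the brightest there, and -0.935 at the probe used elsewhere, a value added after seeing the data; no other of these genes changed probe in a refit on fewer arrays. Isl1 had 0.0285 in replicates 1 and 2 alone, and 0.118 to 0.167 without cKO replicate 1 or 2 or cHet replicate 3 or 4, with -0.181 as its lowest, without cHet replicate 1. Leaving out 1 pool gave Krt18 -0.0476 (without cKO replicate 2) to 0.238, and Hoxa13 -0.000283 (without cHet replicate 1) to 0.219. The cause of the other turns was not tested. Median scaling moved the median of all genes to -0.05. Genes near background, such as Art4 and Ugt1a6b in cKO pools, have differences that the offset limits.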

Other observations

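The liver transcripts of cKO vagina replicate 3 covered several protein classes. Ahsg, the fetuin A gene, read 4.26, 4.2, 10.92 and 4.77 in cKO vagina, against 4.29, 4.17, 4.67 and 5.01 in cHet vagina. Apoa1, the main protein of high-density lipoprotein, read 4.94, 4.61, 11.06 and 5.19 in cKO vagina, against 4.57, 5.39, 5.04 and 5.18 in cHet vagina. Serpina1d, an alpha-1 antitrypsin gene, read 5.07, 4.67, 10.50 and 4.57 in cKO vagina, against 4.33, 4.61, 4.36 and 4.52 in cHet vagina. Trf, the transferrin gene, read 5.08, 5.24, 8.98 and 4.81 in cKO vagina, against 5.16, 5.15, 5.16 and 5.31 in cHet vagina. In each of them 1 cKO pool was high and the other 7 vaginal pools were alike, and none was called (0.857 to 0.874 for Ahsg and Trf by limma adjusted p).

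Slc4a1, the band 3 anion exchanger of red blood cells, read 4.43, 4.45, 8.33 and 4.48 in cKO vagina, against 5.62, 4.32, 4.26 and 4.51 in cHet vagina, so the same pool was high for it. S100a8 and S100a9, calprotectin genes of neutrophils and stressed epithelium, were also highest there. S100a8 read 8.86, 8.22, 10.27 and 7.88 in cKO vagina, against 7.04, 7.51, 7.43 and 7.60 in cHet vagina, and S100a9 read 6.87, 6.19, 9.17 and 6.43 in cKO vagina, against 5.44, 5.33, 5.61 and 6.28 in cHet vagina. The S100a8 groups did not overlap, with a difference of 1.42 that did not pass (limma adjusted p = 0.130). These genes were picked after their values were seen.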
